A study of Mus musculus with 16 samples.

Results

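A set of 10 genes that switch Ras and Rap signaling on or hold it back was followed in macrophages that were derived in culture from the bone marrow of mice (BMDMs). They are the 4 Rasgrp genes (Rasgrp1, Rasgrp2, Rasgrp3 and Rasgrp4), Rapgef5, the Sprouty genes Spry1 and Spry2, the Sprouty-related genes Spred1 and Spred2, and the kinase gene Map3k8. The set was named by symbol out of the 55487 genes of the count table. It was chosen by measured values of these samples, namely the lower level of Rasgrp3 with tumor medium and the higher level of Rapgef5 with ruxolitinib. Values of the genes in CM against DMEM and in CM + Rux against CM are therefore given below as a description, without a p-value, and nothing is read from how many of the genes passed the thresholds in them. All 10 passed the filter on low counts that left 12372 genes.

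All samples were BMDMs of 8-week-old wild-type Balb/c mice, which the study's methods give as female. The cells had been serum starved and then received conditioned medium (CM) from 4T1 cells, a mouse mammary tumor line, or DMEM without tumor factors. The 6 groups were DMEM (2 samples), DMEM + Rux (3), CM (3), CM + Rux (3, labelled 4 h), CM + Rux 2 h (2) and CM + Rux + IKK-16 (3). Ruxolitinib (Rux), an inhibitor of the kinases JAK1 and JAK2, was used at 0.5 µM in the CM groups and was already present during starvation, and IKK-16, which inhibits the IKK kinases upstream of NF-κB, was used at 0.8 µM. The dose in DMEM + Rux and the meaning of the 2 h label are not given in the sources used here, and the methods describe a treatment of 4 h. Neither do the labels say whether replicates came from separate cultures or animals, so p-values measure the spread between these samples, which may be technical. Counts per sample summed to between 18449388 and 46215853, and 3 reads, taken as the limit of detection, were worth 0.0669 to 0.175 CPM (reads scaled to the library total). Macrophage markers were abundant, since the 10 genes of that list summed to between 40306 and 57458 CPM and Lyz2 was the highest.

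Ras and Rap are small GTPases that signal while bound to GTP. Exchange factors load them with GTP: RasGRP proteins are exchange factors that respond to diacylglycerol (and several of them to calcium), and Rapgef5 encodes an exchange factor for Rap proteins. Active Ras starts the Raf, MEK and ERK kinase cascade, which Sprouty and Spred proteins restrain upstream of Raf or at Raf. Map3k8 encodes the kinase Tpl2, which activates MEK without Ras and, in macrophages, is held by the NF-κB precursor p105 until IKK releases it.

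From the RefSeq promoter table (GRCm38.p6), 11 windows for 8 of the 10 genes were used here. Sequences are shown for Rasgrp3 and Rapgef5, the pair by which the set was chosen, for the window that held a match. Each run ends before the earlier of the RefSeq and Ensembl starts, and capitals mark the letters GAGGAAGT, a sequence of the type that PU.1 and other ETS factors bind. The window of Rasgrp3 is chr17:75435655-75435895 and that of Rapgef5 is chr12:117516276-117516478, both on the plus strand.
Rasgrp3: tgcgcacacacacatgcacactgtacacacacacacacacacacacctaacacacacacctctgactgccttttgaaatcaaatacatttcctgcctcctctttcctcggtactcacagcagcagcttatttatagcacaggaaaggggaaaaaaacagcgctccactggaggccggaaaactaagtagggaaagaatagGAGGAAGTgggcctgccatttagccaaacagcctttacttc
Rapgef5: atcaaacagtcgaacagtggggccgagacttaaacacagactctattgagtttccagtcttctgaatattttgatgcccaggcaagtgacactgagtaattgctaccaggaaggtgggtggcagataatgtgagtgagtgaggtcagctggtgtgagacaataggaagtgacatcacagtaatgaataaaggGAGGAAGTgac
The match began 50 bases before the RefSeq start of Rasgrp3 and 58 bases before that of Rapgef5. Spred2 had it on the other strand, 33 bases before its RefSeq start, but inside the gene by its earlier Ensembl start. These letters were chosen after the windows had been read. On either strand they occurred in 2.44% of 32851 windows of 250 bases before a start. A STAT-type sequence, TTCNNNGAA, was found only for Rasgrp1 among the 11 windows, and in 7.02% of all windows. It began 120 bases before the RefSeq start of Rasgrp1, which is likewise inside the gene by its Ensembl start. TGANTCA (6.75% of all windows) and TGACGTCA (1.55%) were in none of the 11. None of these motifs overlap in the windows, a match is only a description of the letters, and gene counts do not show which start was used in these cells.

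The levels of the 10 genes are given as normalized CPM, scaled by relative log expression (RLE). To compare genes with each other, CPM were divided by exon length in kb. That length merges all annotated exons of a gene and can exceed that of a single transcript, so the scale is rough. It was 12384 bases for Rasgrp2 and 5600, 5840 and 6363 bases for Rasgrp1, Rasgrp3 and Rasgrp4. On that scale Spred1 was the highest of the 10 in every group, at 40.7 CPM per kb in DMEM and 41.4 in CM. In DMEM it was followed by Rasgrp3 (19.5 CPM per kb) and Rapgef5 (11.4), whereas in CM it was followed by Map3k8 (18.5) and Spred2 (11.8). At the low end, Rasgrp1 had 0.0574 CPM per kb in DMEM, and Rasgrp2 and Spry1 had group means below 0.6.

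**Figure D1:**
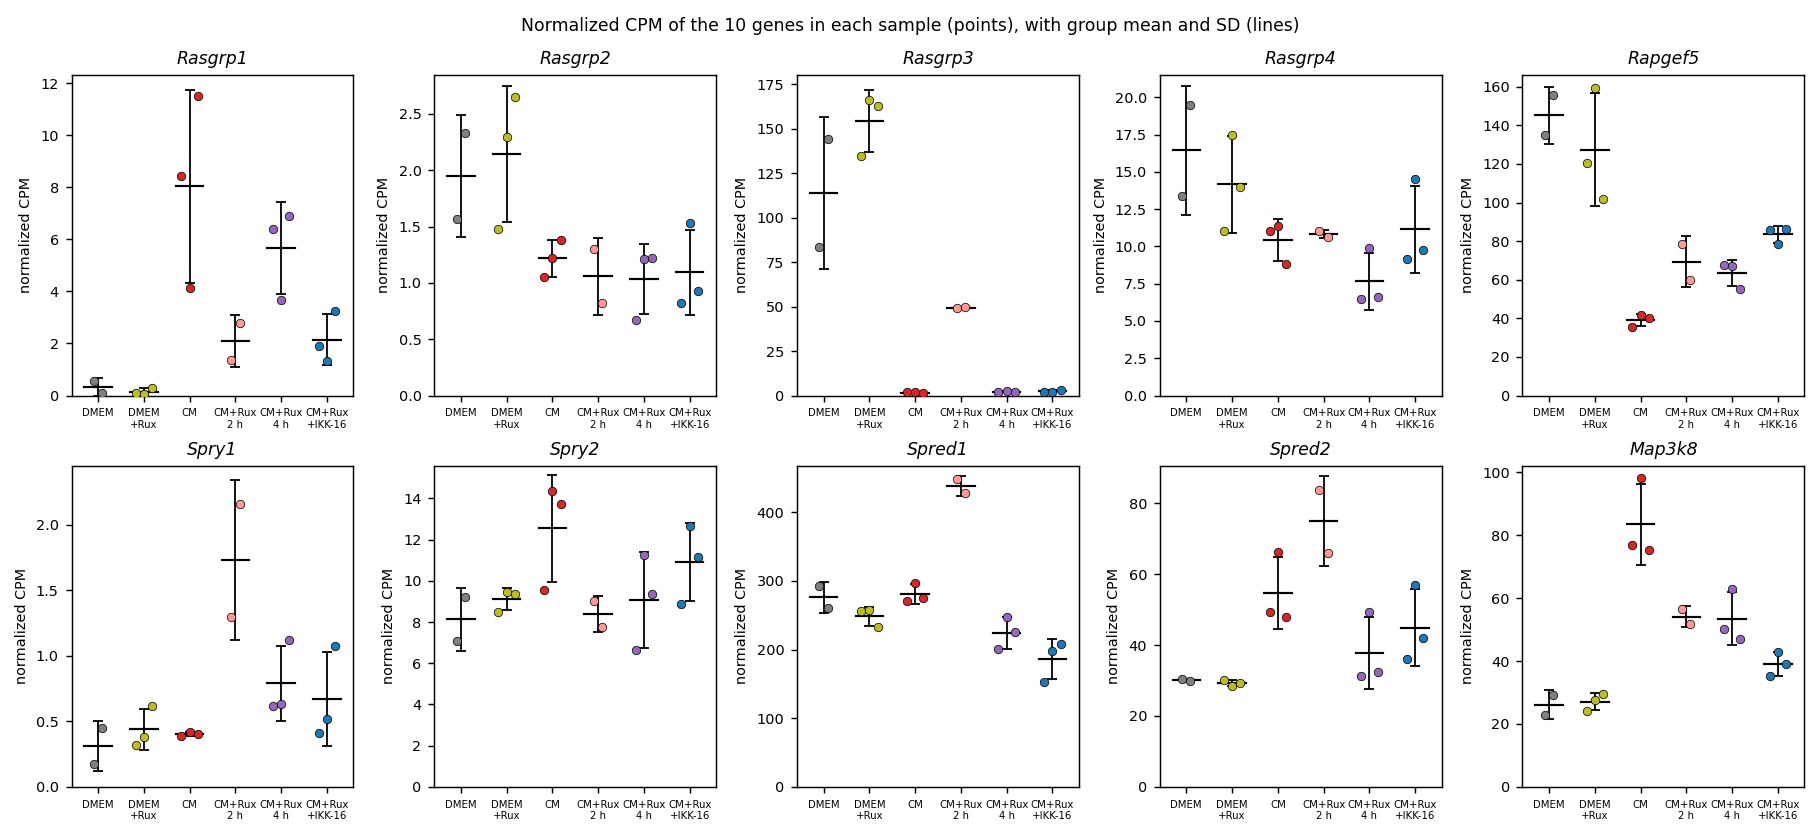
Normalized CPM (vertical axes, linear, different for each gene) of the 10 genes in each of the 16 samples by group, with points for samples and lines for the group mean and SD. Rasgrp3 reached 83.8 to 166 CPM in the 5 samples without CM, 49.3 and 49.7 CPM in CM + Rux 2 h, and at most 3.06 CPM in the other samples with CM.

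Rasgrp3 (ENSMUSG00000071042, chr17:75435896-75529054) had the widest range of levels in CPM of the 4 Rasgrp genes. Its level was 83.8 and 144 CPM in the DMEM samples and 134, 166 and 163 CPM in DMEM + Rux. With CM it was 1.72, 2.02 and 1.30 CPM, with CM + Rux 2.08, 2.49 and 1.83 CPM, and with CM + Rux + IKK-16 2.21, 2.08 and 3.06 CPM. The samples of CM + Rux 2 h lay between, at 49.3 and 49.7 CPM. Among the 3 treatments with CM other than the 2 h group, CM + Rux overlapped the other two, whereas all samples of CM lay below those of CM + Rux + IKK-16. Both DMEM groups overlapped, and the 2 h group was apart from all other groups. In CM against DMEM, the contrast by which the gene was chosen, the level was 66.8-fold lower (log2 fold change -6.06, SE 0.24).

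The comparison of CM + Rux with DMEM + Rux uses none of the samples of CM against DMEM. There Rasgrp3 fell 71.0-fold, by 6.15 on the log2 scale (SE 0.23, edgeR adjusted p = 1.54e-10), and it was lower in all 3 samples. With IKK-16 added, in samples that neither contrast of the choice contains, it was lower than in DMEM + Rux by -5.98 (SE 0.23, edgeR adjusted p = 4.44e-10). CM + Rux 2 h was 22.7-fold above CM + Rux (log2 fold change 4.51, SE 0.23, edgeR adjusted p = 4.58e-08), although only 2 samples carry the 2 h label. DMEM + Rux against DMEM shares the DMEM samples by which the gene was chosen and is a description, with a log2 fold change of 0.44 (SE 0.19), overlapping samples, 0.097 without DMEM replicate 1 and 0.88 without DMEM replicate 2. IKK-16 on top of CM + Rux gave 0.17 (SE 0.25, edgeR adjusted p = 0.703).

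Rasgrp3 is also known from B cells, so B cell markers are given beside it. The B cell list of 7 genes summed to 90.2 and 158 CPM in DMEM and to between 17.9 and 25.6 CPM in CM. The most abundant gene of the list was Ighm, with 78.9 and 143 CPM in DMEM, 10.3 to 13.95 CPM in CM and 55.2 and 70.7 CPM in CM + Rux 2 h. Nearly all of the rest was Cd22, an inhibitory receptor gene of B cells, with 10.2 and 14.7 CPM in DMEM, 7.34 to 14.9 CPM in CM and 11.2 to 20.1 CPM in CM + Rux + IKK-16. The samples of DMEM and CM thus overlapped for Cd22 and were apart for Ighm. Among the defining markers, Pax5 was at 0 in all 16 samples, and Ms4a1 was at 0 in 12 samples, with at most 2 reads in any sample. Cd79b, in contrast, was found in all 16 samples, at 0.081 to 1.21 CPM and with up to 53 reads. Whether its level moved with that of Rasgrp3 was not tested. Below 1 CPM in every sample were 4 of the 7 genes. Whether the RNA of Ighm and Rasgrp3 came from the same cells was not tested. In bulk RNA, fewer cells of a type and less RNA per cell cannot be told apart. In the 2 h group a gene of the dendritic cell list was high as well. That list of 6 genes summed to 8.83 and 12.8 CPM in CM + Rux 2 h and to between 2.21 and 2.32 CPM in CM + Rux, of which Zbtb46 made up 7.95 and 12.3 CPM in the first and 1.79 to 2.08 CPM in the second. The other 5 genes of the list were below 1 CPM in every sample, Flt3 was at 0 in both 2 h samples, and the part of such cells in the 2 h values was not tested.

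Rasgrp1 (ENSMUSG00000027347, chr2:117279993-117343001), best known for activating Ras in T cells and mast cells, had its highest levels with CM. It was close to the limit of detection without CM, at 0.561 and 0.0818 CPM in DMEM (19 and 2 reads) and at 0.0923, 0.0669 and 0.291 CPM in DMEM + Rux (2, 3 and 9 reads). CM samples held 8.45, 4.13 and 11.5 CPM, and CM + Rux samples 6.41, 3.65 and 6.91 CPM. Levels were lower in CM + Rux + IKK-16 (1.91, 1.31 and 3.23 CPM) and in CM + Rux 2 h (1.38 and 2.80 CPM). Neighbors in the order that did not overlap were CM + Rux and CM + Rux + IKK-16, and CM + Rux 2 h and DMEM.

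In CM against DMEM the log2 fold change of Rasgrp1 was 4.49 (SE 0.70), and 6.54 without DMEM replicate 1, which held 19 of the 21 reads of that group. Rasgrp1 passed the filter on low counts (more than 1 CPM in 2 or more samples) only through the groups with CM, where it is high, so its comparisons with DMEM + Rux are descriptions as well. In CM + Rux against DMEM + Rux the log2 fold change was 5.23 (SE 0.67). Without DMEM + Rux replicate 3 this was 6.14, and without DMEM + Rux replicate 2 it was 4.73. With IKK-16 it was 3.85 above DMEM + Rux (SE 0.71), or 4.76 and 3.36 without the same samples. These folds rest on 14 reads in DMEM + Rux and so are known only roughly.

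For CM + Rux + IKK-16 against CM + Rux, the fold change of Rasgrp1 was -1.38 (SE 0.46, edgeR adjusted p = 0.0617), and all 3 samples with IKK-16 were below the 3 without. The call depended on the model: with the replicate number as a block it was -1.45 (edgeR adjusted p = 1.29e-04). With no filter on low counts it was -1.38 (edgeR adjusted p = 0.00165), and with DESeq2 -1.39 (adjusted p = 0.0325). Without CM + Rux replicate 2 it was -1.63 (edgeR adjusted p = 0.0491), and without CM + Rux + IKK-16 replicate 3 -1.79 (edgeR adjusted p = 0.0476). Without each of the other 4 samples it stayed short of the p threshold, with values as near to 0 as -1.13 and an adjusted p of up to 0.173. In CM + Rux 2 h it was lower than in CM + Rux by -1.49 (SE 0.56, edgeR adjusted p = 0.0479). This call was lost with TMM normalization (adjusted p = 0.0507), without CM + Rux 2 h replicate 2 (-1.005, adjusted p = 0.316) or replicate 3 (-2.02, adjusted p = 0.0601), and without CM + Rux replicate 1 (adjusted p = 0.106) or replicate 3 (adjusted p = 0.105).

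T cell and mast cell markers are given beside Rasgrp1. The 8 genes of the T cell list summed to 1.54 and 1.06 CPM in DMEM and to between 3.53 and 4.44 CPM in CM, led by Lck, which encodes a kinase of T cell receptor signaling and reached 2.998 to 3.74 CPM in CM. Cd247, which encodes the zeta chain of the T cell receptor complex, was 0.041 and 0.089 CPM in DMEM, 0.505 to 1.17 CPM in CM, 0.847 to 1.73 CPM in CM + Rux and 0.232 to 0.466 CPM in CM + Rux + IKK-16. It was thus higher in all samples of CM than in those of DMEM and lower in all samples with IKK-16 than in those of CM + Rux, but at 0.497 and 1.81 CPM in CM + Rux 2 h it did not have the lower level there that Rasgrp1 had. Lck overlapped between CM + Rux (1.64 to 2.69 CPM) and CM + Rux + IKK-16 (1.497 to 2.53 CPM), and Cd2 was lower in CM (0.030 to 0.122 CPM) than in DMEM (0.148 and 0.245 CPM). Cd3g, Trac and Trbc2 were at 0 in all 16 samples, Cd3d and Cd3e were at 0 in 15, and 6 of the 8 genes were below 1 CPM in every sample. The mast cell and basophil list summed to at most 0.448 CPM, with Kit as its highest gene and Cpa3, Fcer1a, Tpsb2, Cma1 and Mcpt4 at 0 in all 16. The neutrophil list of 9 genes, led by Mmp8, summed to 2.36 and 3.60 CPM in DMEM and to 9.32 to 9.88 CPM in CM. It was 5.85 to 7.27 CPM in CM + Rux, 3.45 to 6.75 CPM in CM + Rux + IKK-16, and 4.08 and 9.16 CPM in CM + Rux 2 h. Ly6g and Retnlg were at 0 in all 16 samples, and the part of such cells in the values of Rasgrp1 was not tested.

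Rasgrp4 (ENSMUSG00000030589, chr7:29134851-29153961), a gene of mast cells and other myeloid cells, varied less. Its samples held 13.4 and 19.5 CPM in DMEM, 11.03, 17.5 and 13.97 CPM in DMEM + Rux, 11.1, 11.4 and 8.83 CPM in CM, 11.04 and 10.6 CPM in CM + Rux 2 h, 6.49, 9.87 and 6.61 CPM in CM + Rux, and 9.14, 14.5 and 9.78 CPM in CM + Rux + IKK-16. Every pair of neighbors in the order of the groups overlapped. Even so, Rasgrp4 fell in CM + Rux against DMEM + Rux (log2 fold change -0.88, SE 0.23, edgeR adjusted p = 0.00341), where the samples were apart. Adding IKK-16 to CM + Rux gave 0.53 (SE 0.23, edgeR adjusted p = 0.141), and 0.53 with the replicate block (edgeR adjusted p = 0.00826). Against DMEM + Rux, CM + Rux + IKK-16 gave -0.36 (SE 0.22, edgeR adjusted p = 0.185). That value was -0.57 with scaling by total counts (adjusted p = 0.0248) and -0.59 without CM + Rux + IKK-16 replicate 2 (adjusted p = 0.0424). CM + Rux 2 h against CM + Rux gave 0.49 (SE 0.26, edgeR adjusted p = 0.147), and 0.72 without CM + Rux replicate 2 (adjusted p = 0.0463).

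Rasgrp2 (ENSMUSG00000032946, chr19:6399340-6415216) encodes the exchange factor that activates Rap1 in platelets. It was low throughout, from 0.674 CPM in a CM + Rux sample to 2.65 CPM in a DMEM + Rux sample. The samples of DMEM held 1.56 and 2.33 CPM and those of CM 1.06, 1.22 and 1.38 CPM. Rasgrp2 fell in CM + Rux against DMEM + Rux (log2 fold change -1.08, SE 0.31, edgeR adjusted p = 0.0075). With IKK-16 the change from DMEM + Rux was -0.99 (SE 0.31, edgeR adjusted p = 0.0133), the samples overlapped, and the call was lost without CM + Rux + IKK-16 replicate 1 (-0.82, adjusted p = 0.0586) or DMEM + Rux replicate 3 (-0.82, adjusted p = 0.0587). The 6 platelet and megakaryocyte markers summed to 0.759 to 5.49 CPM, and the most abundant was Ppbp with 0.162 to 4.24 CPM. Gp1bb and Gp6 were at 0 in all 16 samples, and Gp9 and Gp1ba had at most 2 reads in any. The sum was higher in all samples of CM than in those of DMEM. The part of such cells in the values of Rasgrp2 was not tested.

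Set beside each other per kb of exon, the 4 Rasgrp genes summed to 22.3 ± 7.99 CPM per kb (SD, n = 2) in DMEM and 28.9 ± 3.50 (n = 3) in DMEM + Rux. The sum was 3.46 ± 0.431 (n = 3) in CM, 2.66 ± 0.0789 (n = 3) in CM + Rux, 2.64 ± 0.391 (n = 3) in CM + Rux + IKK-16 and 10.6 ± 0.151 (n = 2) in CM + Rux 2 h. Rasgrp3 made up 87.2% of the sum in DMEM, 91.7% in DMEM + Rux and 79.7% in CM + Rux 2 h. In CM its share was 8.56%, while Rasgrp4 made up 48.3% and Rasgrp1 40.3%. The shares in CM + Rux were 13.7% for Rasgrp3, 45.1% for Rasgrp4 and 38.12% for Rasgrp1. These means hide a varying order, since Rasgrp1 was above Rasgrp4 in CM replicate 3 and in CM + Rux replicates 1 and 3, and below it in the other samples of both groups. With IKK-16, Rasgrp4 made up 65.8%, Rasgrp3 16.1% and Rasgrp1 14.8% of the sum. The Rasgrp gene with the highest level per kb therefore differed between groups with and without CM, apart from the 2 h group, where Rasgrp3 still led. These shares depend on the merged exon lengths, most of all for Rasgrp2, which has the longest.

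**Figure D2:**
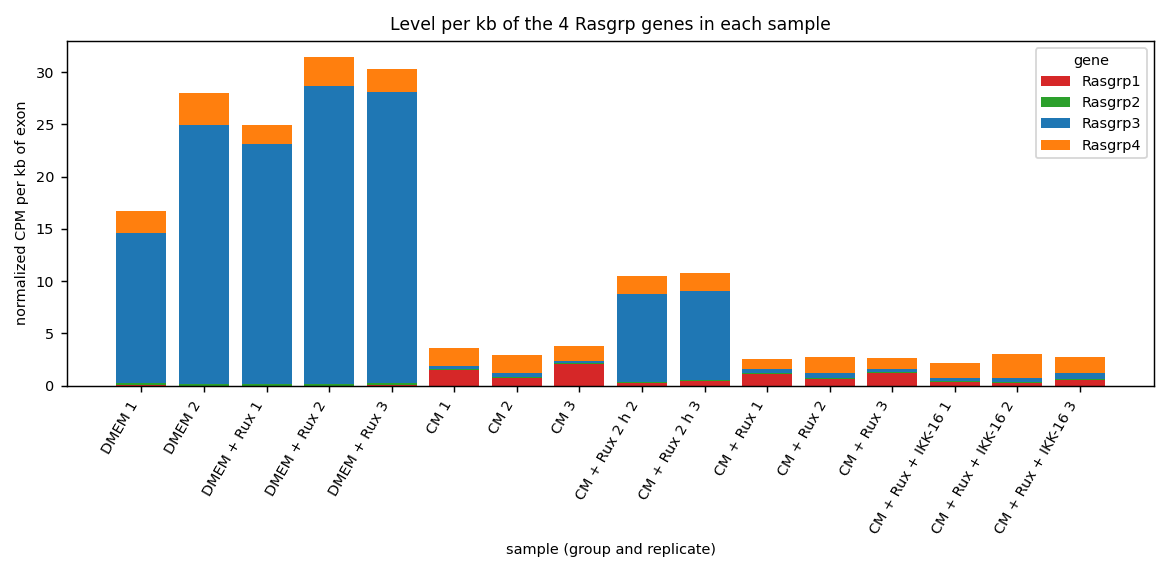
Level per kb of exon (normalized CPM per kb, vertical axis from 0) of the 4 Rasgrp genes stacked for each of the 16 samples. Rasgrp3 fills most of the bars of DMEM, DMEM + Rux and CM + Rux 2 h, and Rasgrp4 and Rasgrp1 fill most of the bars of the other CM samples.

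Rapgef5 (ENSMUSG00000041992, chr12:117516479-117759737) had 135 and 156 CPM in DMEM and 121, 160 and 102 CPM in DMEM + Rux. In CM the samples held 35.7, 41.9 and 40.0 CPM, the lowest of any group. CM + Rux samples held 67.6, 67.0 and 55.5 CPM, CM + Rux 2 h samples 78.7 and 59.95 CPM, and CM + Rux + IKK-16 samples 85.9, 78.5 and 86.5 CPM. CM was apart from all other groups, the DMEM groups were apart from all CM groups, and the groups between overlapped their neighbors in the order of levels. In the contrasts by which the set was chosen, the log2 fold change was -1.89 (SE 0.16) in CM against DMEM and 0.69 (SE 0.15) in CM + Rux against CM.

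The comparisons of CM + Rux with DMEM + Rux and with CM + Rux + IKK-16 reuse the CM + Rux samples by which Rapgef5 was chosen, so for this gene they are descriptions too. CM + Rux against DMEM + Rux gave a log2 fold change of -1.01 (SE 0.15). In CM + Rux + IKK-16, whose samples the choice did not use, it was below DMEM + Rux by -0.61 (SE 0.15, edgeR adjusted p = 0.00265), and without DMEM + Rux replicate 2 this was -0.41 (adjusted p = 0.0159), short of the fold threshold. IKK-16 on top of CM + Rux gave 0.40 (SE 0.15), and the 3 samples with IKK-16 were above the 3 without. Ruxolitinib in DMEM gave -0.19 (SE 0.16, edgeR adjusted p = 1). Whether the effect of ruxolitinib on Rapgef5 differed between CM and DMEM was not tested.

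Spred1 (ENSMUSG00000027351, chr2:117121374-117182279) encodes a protein that brings the Ras inhibitor neurofibromin to the membrane. Its level was 448 and 428 CPM in CM + Rux 2 h, above every other sample. The other groups ranged from 152 CPM in a CM + Rux + IKK-16 sample to 297 CPM in a CM sample. DMEM samples held 292 and 260 CPM and CM samples 270, 297 and 276 CPM, and these groups overlapped (log2 fold change 0.02, SE 0.12, and -0.29 with scaling by total counts). Spred1 rose in CM + Rux 2 h against CM + Rux (201, 247 and 225 CPM), with a log2 fold change of 0.96 (SE 0.12, edgeR adjusted p = 4.13e-05). The 2 h samples were also those with high Zbtb46, given above beside Rasgrp3. In CM + Rux + IKK-16 (152, 198 and 208 CPM) it was below DMEM + Rux (256, 257 and 233 CPM) with a log2 fold change of -0.42 (SE 0.11, edgeR adjusted p = 0.00456), short of the fold threshold. This was -0.64 with scaling by total counts and -0.50 without CM + Rux + IKK-16 replicate 3, both past it.

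Spred2 (ENSMUSG00000045671, chr11:19924375-20024026), its relative, was near 30 CPM in all 5 samples without CM, between 28.4 and 30.5 CPM. In CM it was 49.4, 66.3 and 48.1 CPM, in CM + Rux 31.4, 49.5 and 32.5 CPM, in CM + Rux + IKK-16 36.0, 56.9 and 41.9 CPM, and in CM + Rux 2 h 83.9 and 66.1 CPM. With RLE scaling, all samples with CM were thus above all samples without. The rise in CM + Rux 2 h against CM + Rux was 0.99 on the log2 scale (SE 0.21, edgeR adjusted p = 0.0023). Between CM + Rux and DMEM + Rux the value was 0.37 (SE 0.19, edgeR adjusted p = 0.102), and 0.062 to 0.49 under the alternatives. With IKK-16 Spred2 was above DMEM + Rux by 0.62 (SE 0.19, edgeR adjusted p = 0.0135), a call that was lost with scaling by total counts (0.40, adjusted p = 0.0511) and without CM + Rux + IKK-16 replicate 2 (0.41, adjusted p = 0.0814).

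The Sprouty genes were lower than the Spred genes. Spry2 (ENSMUSG00000022114, chr14:105891947-105896819) ranged from 6.63 to 14.4 CPM, with 7.06 and 9.20 CPM in DMEM and 9.56, 14.4 and 13.7 CPM in CM. As descriptions, its log2 fold change was 0.64 (SE 0.23) in CM against DMEM and -0.47 (SE 0.20) in CM + Rux against CM. In the first the samples were apart and the value was past both thresholds, but it was 0.32 with scaling by total counts. All neighbors in its order of levels overlapped, and in the 5 tested comparisons its fold changes lay between -0.11 and 0.26 with none past the thresholds. Spry1 (ENSMUSG00000037211, chr3:37639947-37644598) was at most 1.12 CPM outside CM + Rux 2 h, where it was 1.30 and 2.16 CPM (47 and 37 reads). It was higher there than in CM + Rux (0.620, 0.629 and 1.12 CPM) by 1.15 on the log2 scale (SE 0.43). Outside the 2 h group, Spry1 exceeded 1 CPM only in CM + Rux replicate 3 (1.12 CPM) and CM + Rux + IKK-16 replicate 3 (1.08 CPM). It passed the filter on low counts only through these groups, where it is high, so its comparisons are descriptions. The 2 h value was past both thresholds, but not with scaling by total counts, the filterByExpr filter, only the groups compared or DESeq2. Nor was it past them without CM + Rux 2 h replicate 3 (0.77) or without CM + Rux replicate 1 (1.005) or 2 (1.003). For CM + Rux against DMEM + Rux Spry1 gave 0.77 (SE 0.44), and 0.85 with the replicate block.

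Map3k8 (ENSMUSG00000024235) had its highest level in CM. The samples held 22.9 and 29.3 CPM in DMEM, 24.0, 27.7 and 29.6 CPM in DMEM + Rux, and 76.9, 98.2 and 75.2 CPM in CM. With ruxolitinib in CM they held 50.3, 63.0 and 47.0 CPM, with the 2 h label 56.4 and 51.8 CPM, and with IKK-16 35.1, 42.9 and 39.0 CPM. In the order of levels, CM was apart from CM + Rux 2 h and CM + Rux, which overlapped, followed apart by CM + Rux + IKK-16 and then by both DMEM groups, which overlapped. The log2 fold change was 1.68 (SE 0.16) in CM against DMEM and -0.64 (SE 0.14) in CM + Rux against CM, which are descriptions here.

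Map3k8 rose in CM + Rux against DMEM + Rux, by 0.98 on the log2 scale (SE 0.14, edgeR adjusted p = 2.74e-05). In CM + Rux + IKK-16 it remained above DMEM + Rux by 0.52 (SE 0.14, edgeR adjusted p = 0.00528), close to the fold threshold. That call was lost with scaling by total counts (0.31) and without CM + Rux + IKK-16 replicate 2 (0.45) or DMEM + Rux replicate 1 (0.45). Adding IKK-16 to CM + Rux gave -0.46 (SE 0.14, edgeR adjusted p = 0.0396), which met the p threshold but not the fold threshold of 0.5. Without CM + Rux replicate 3 it was -0.54 (adjusted p = 0.0338) and without CM + Rux + IKK-16 replicate 2 -0.53 (adjusted p = 0.0391), both past the fold threshold as well. Without CM + Rux replicate 2 it was -0.32 (adjusted p = 0.166), and the p threshold was also missed without CM + Rux replicate 1 and without CM + Rux + IKK-16 replicate 1 or 3.

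Counted over the set, a gene was called when the adjusted p was under 0.05 and the fold change exceeded 0.5 on the log2 scale. In CM against DMEM, 4 of the 10 genes were past both thresholds as higher and 3 as lower, where 45% of all 12372 genes tested were called, 20.9% higher and 24.1% lower. With scaling by total counts this was 3 higher and 4 lower, and over all genes 1536 higher and 4605 lower. For CM + Rux against CM, Rapgef5 was past them as higher and Map3k8 as lower, where 3.33% of all genes were called, 1.2% higher and 2.13% lower. With the replicate block, Spred2 was also past them, and the genes called of all tested numbered 745 in place of 412. Nothing is read from the counts of these contrasts, since the set was chosen with them in view.

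Between CM + Rux and DMEM + Rux 6 of 10 were past both thresholds, with Rasgrp1 and Map3k8 higher and Rasgrp2, Rasgrp3, Rasgrp4 and Rapgef5 lower, and 47.3% of all genes were called, 22.3% higher and 25% lower. Among these, Rasgrp1 and Rapgef5 are counted as descriptions only, for the reasons given with each gene. The median log2 fold change of the 10 was -0.08, and that of all genes tested was 0.00. With IKK-16, 6 of 10 were called against DMEM + Rux, where 37.4% of all genes were, 17.8% higher and 19.6% lower, with Rasgrp1, Spred2 and Map3k8 higher and Rasgrp2, Rasgrp3 and Rapgef5 lower. With scaling by total counts 6 were called too, 1 higher and 5 lower, since Spred2 and Map3k8 lost their calls and Rasgrp4 and Spred1 were called lower, where all genes split into 1554 higher and 3607 lower. The place of Rasgrp1 in these counts is again a description. These comparisons share the DMEM + Rux samples. In CM + Rux 2 h against CM + Rux 5 of 10 were called, with Rasgrp3, Spry1, Spred1 and Spred2 higher and Rasgrp1 lower, where 23.3% of all genes were called, 12.6% higher and 10.7% lower. Here the place of Spry1 is a description, for the reason given with that gene. With scaling by total counts the balance over all genes turned, from 1556 higher and 1327 lower to 1339 and 1704, and 3 of the 10 were higher and 1 lower. The median log2 fold change of the 10 in that comparison was 0.31, and that of all genes was -0.03.

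With IKK-16 added to CM + Rux, 0 of 10 were called by the main edgeR fit, where 7.74% of all genes were called, 4.07% higher and 3.66% lower. That fit does not pair samples by replicate number, although deviations of samples with the same number correlated at 0.59 to 0.70 in this comparison. With scaling by total counts the calls of all genes moved from 504 higher and 453 lower to 727 and 350. An unadjusted p under 0.05 was found for 5 of the 10, among them Rapgef5, whose value here is a description. How many of all genes had such a p was not counted, so nothing is read from this number. DESeq2 and the edgeR fit with no filter each called Rasgrp1. The edgeR fit with the replicate block called Rasgrp1 and Rasgrp4, where it called 1342 of all genes in place of 957. With ruxolitinib in DMEM, edgeR and DESeq2 each called 0 of 10, and 0.97% of all genes were called by edgeR, each of them lower. An unadjusted p under 0.05 was found for 1 of the 10, Rasgrp3, whose choice used the DMEM samples, so that it is only a description. Here too, all genes with such a p were not counted. The comparisons of CM + Rux with DMEM + Rux, with CM + Rux + IKK-16 and with CM + Rux 2 h share the CM + Rux samples with the choice of the set, and the comparison in DMEM shares the DMEM samples with it.

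**Figure D3:**
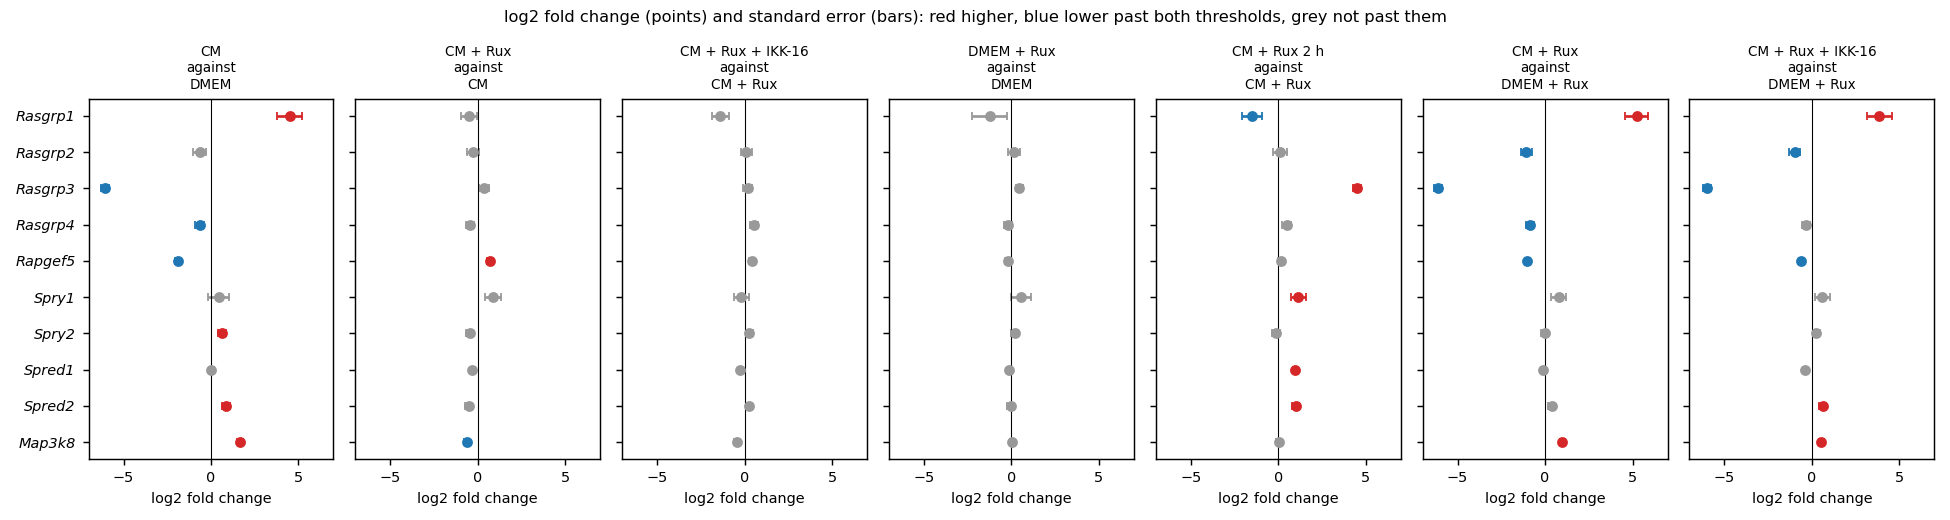
log2 fold change (horizontal axes) and SE (bars) of the 10 genes in the 7 comparisons, with red and blue for genes past both thresholds and grey for the rest. The 2 panels on the left are the contrasts by which the set was chosen. Rasgrp3 lies at -6.06, -6.15 and -5.98 in the panels of CM against DMEM, CM + Rux against DMEM + Rux and CM + Rux + IKK-16 against DMEM + Rux, and at 4.51 in CM + Rux 2 h against CM + Rux.

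The 10 genes were set beside a wider list of 88 other Ras and MAPK genes, 83 of them tested, in role groups. Of the 83, 33 were higher and 19 lower in CM + Rux than in DMEM + Rux, where 22.3% of all genes tested were higher and 25% lower, with a median log2 fold change of 0.27 against 0.00 for all genes tested. With scaling by total counts the split was 22 higher and 28 lower, so the balance of directions depends on the scaling. Of 14 GTPase-activating proteins, which switch Ras and Rap off, 4 were higher and 5 lower. Sipa1l1, which acts on Rap, rose most (3.22, edgeR adjusted p = 9.3e-10) and Rasa3, which acts on Ras and Rap, fell most (-3.32, edgeR adjusted p = 9.8e-09). Of 11 other exchange factors tested, 5 were higher and 2 lower, with Rasgrf1 (3.36) and Rapgef3 (-3.31), the cyclic AMP-regulated exchange factor for Rap, at the ends. Of 13 Ras and Rap genes 3 were higher and 2 lower, and of 14 receptor adaptors 3 were higher and 4 lower, with Gab1 (2.18) and Gab3 (-3.77) at the ends. Of 12 kinases and scaffolds of the ERK cascade tested, 5 were higher and 1 lower, and Map2k1, which encodes MEK1, rose by 1.15. Among the genes tested here and in the next paragraph, Rasgrf1 and Fosl1 had a mean below 1 CPM in DMEM + Rux. Rapgef3, Rapgefl1, Rasal1, Gab3 and Map2k6 had one in CM + Rux. All of these genes may have passed the filter on low counts only through groups where they are high. Their values are therefore descriptions in every comparison, as are their places in the counts.

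Of the 5 partners of Map3k8, 4 were higher in CM + Rux than in DMEM + Rux, where 22.3% of all genes were higher and 25% lower. They were led by Nfkb1, which encodes p105 (2.81, edgeR adjusted p = 3.4e-10), while Map2k6 was at -0.93. Spred3, the only other Sprouty or Spred gene tested, was at 1.29 ± 0.263 CPM (SD, n = 3) in DMEM + Rux and 4.50 ± 2.39 CPM (n = 3) in CM + Rux (log2 fold change 1.84, edgeR adjusted p = 0.0057). Of 13 tested genes known as ERK targets, 8 were higher and 4 lower, or 8 and 5 with scaling by total counts, beside the same shares of all genes. Ier3 rose most (5.41) and Ccnd1, which encodes cyclin D1, fell most (-3.97). Dusp6, a phosphatase gene that ERK induces, fell from 34.98 ± 4.19 CPM (n = 3) to 14.8 ± 4.04 CPM (n = 3), by -1.24 on the log2 scale (edgeR adjusted p = 0.0029), and Egr1 fell by -1.62 (edgeR adjusted p = 1.4e-05). Etv5 was 40.7 ± 4.54 CPM (n = 3) in DMEM + Rux and 28.2 ± 12.2 CPM (n = 3) in CM + Rux and was not called, and Spry4 was at most 0.363 CPM in any sample and was not tested.

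In CM + Rux 2 h against CM + Rux, 16 of the 83 genes were higher and 10 lower, where 12.6% of all genes tested were higher and 10.7% lower, with a median of -0.03, the same as over all genes. With scaling by total counts 15 were higher and 13 lower. Egr1 rose most and was 10.7 ± 1.43 CPM (SD, n = 2) at 2 h and 1.69 ± 0.278 CPM (n = 3) in CM + Rux (log2 fold change 2.67, edgeR adjusted p = 1.9e-06), and Sipa1l1 fell most (-2.09, edgeR adjusted p = 1.2e-06). Rasa3 (2.26) and Rapgef3 (2.17) were higher and Dusp6 (-1.17) and Fos (-1.70) lower. With IKK-16 added to CM + Rux, 7 were higher and 5 lower, where 4.07% of all genes were higher and 3.66% lower, including Rapgef3 (2.14), Ccnd1 (2.08) and Rasa3 (1.49) as higher and Ier2 (-1.26) and Rras2 (-0.78) as lower. Between CM + Rux and CM, Dusp6 was called lower (-1.37, edgeR adjusted p = 0.022) as the only gene of the list that edgeR called, where DESeq2 called 4. Of all genes, edgeR called 3.33%, 1.2% higher and 2.13% lower. Etv5 was at -1.20 (edgeR adjusted p = 0.057) and Egr1 at -0.76 (edgeR adjusted p = 0.076), both short of the p threshold. With ruxolitinib in DMEM, edgeR called 0 of the 83 and DESeq2 called 1, where edgeR called 0.97% of all genes. An unadjusted p under 0.05 was found for 16 of the 83 in CM + Rux against CM and for 3 in DMEM + Rux against DMEM. How many of all genes had such a p was not counted, so nothing is read from these numbers.

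**Figure D4:**
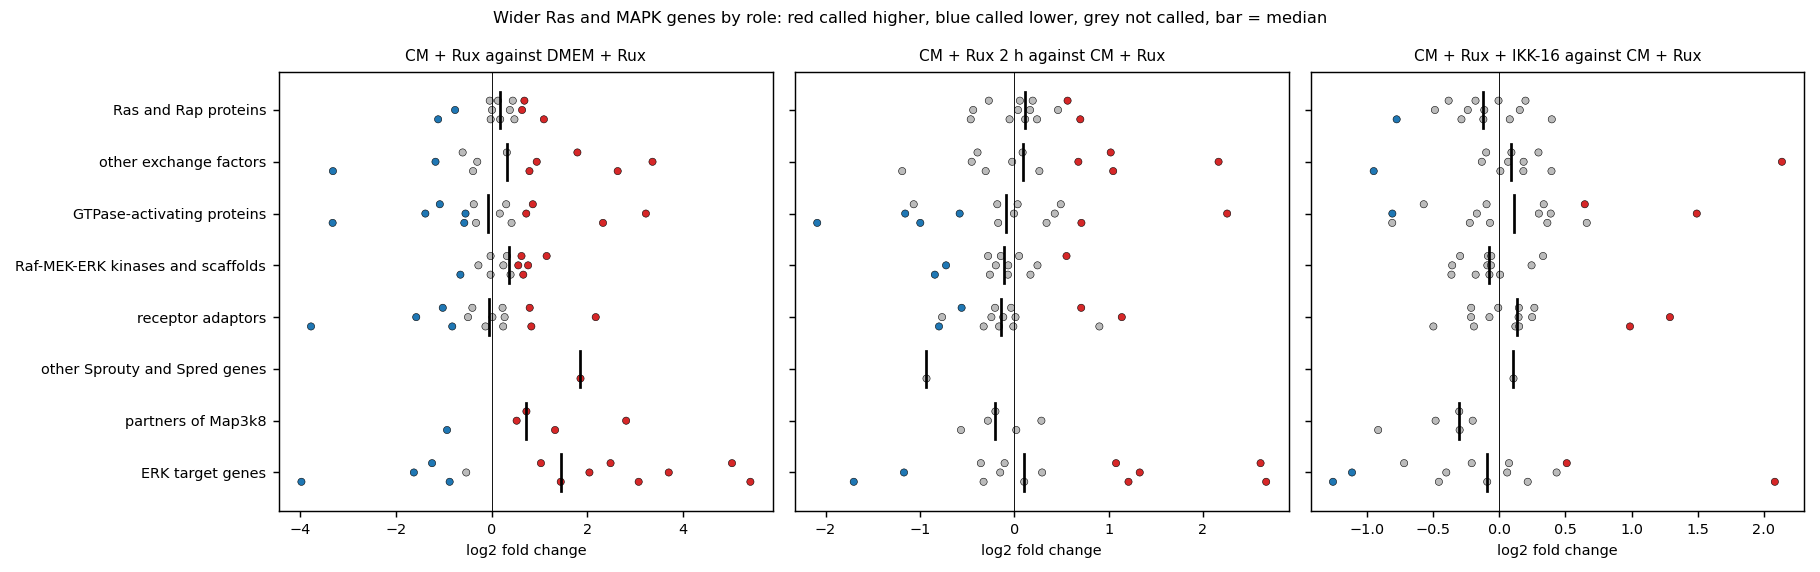
log2 fold change (horizontal axes) of the wider Ras and MAPK genes by role group in 3 comparisons, with 1 point a gene, red and blue for genes called higher and lower, grey for the rest, and a bar at the median of each role group. In CM + Rux against DMEM + Rux 33 points are red and 19 blue, and in CM + Rux + IKK-16 against CM + Rux 7 are red and 5 blue.

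Genes whose profiles over the 16 samples lay closest to those of Rasgrp3, Rapgef5 and Map3k8 were found among 11549 genes, by the root mean square difference of centred log2(CPM + 0.5). The samples share treatments and scaling, so the measure is only a description. For Rasgrp3 the closest was Ldlrad3 (difference 0.69), and Gpr155 (0.89) was among the 3 closest, where the profile of Rasgrp3 itself had a root mean square of 2.69. Ldlrad3 was 59.3 ± 2.47 CPM (SD, n = 2) in DMEM, 1.52 ± 0.212 CPM (n = 3) in CM and 37.0 ± 3.62 CPM (n = 2) in CM + Rux 2 h. For Rapgef5 (0.64) the closest were Jade1 (0.19) and Adck1 (0.22). Jade1 was 27.2 ± 0.555 CPM (n = 2) in DMEM, 8.68 ± 0.691 CPM (n = 3) in CM and 12.9 ± 0.507 CPM (n = 3) in CM + Rux. For Map3k8 (0.60) the closest were Ubash3b (0.17), Ptpn2 (0.19) and Lrrc25 (0.19). Ptpn2 was 20.2 ± 1.67 CPM (n = 2) in DMEM, 51.2 ± 8.40 CPM (n = 3) in CM and 26.6 ± 3.18 CPM (n = 3) in CM + Rux + IKK-16.

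**Figure D5:**
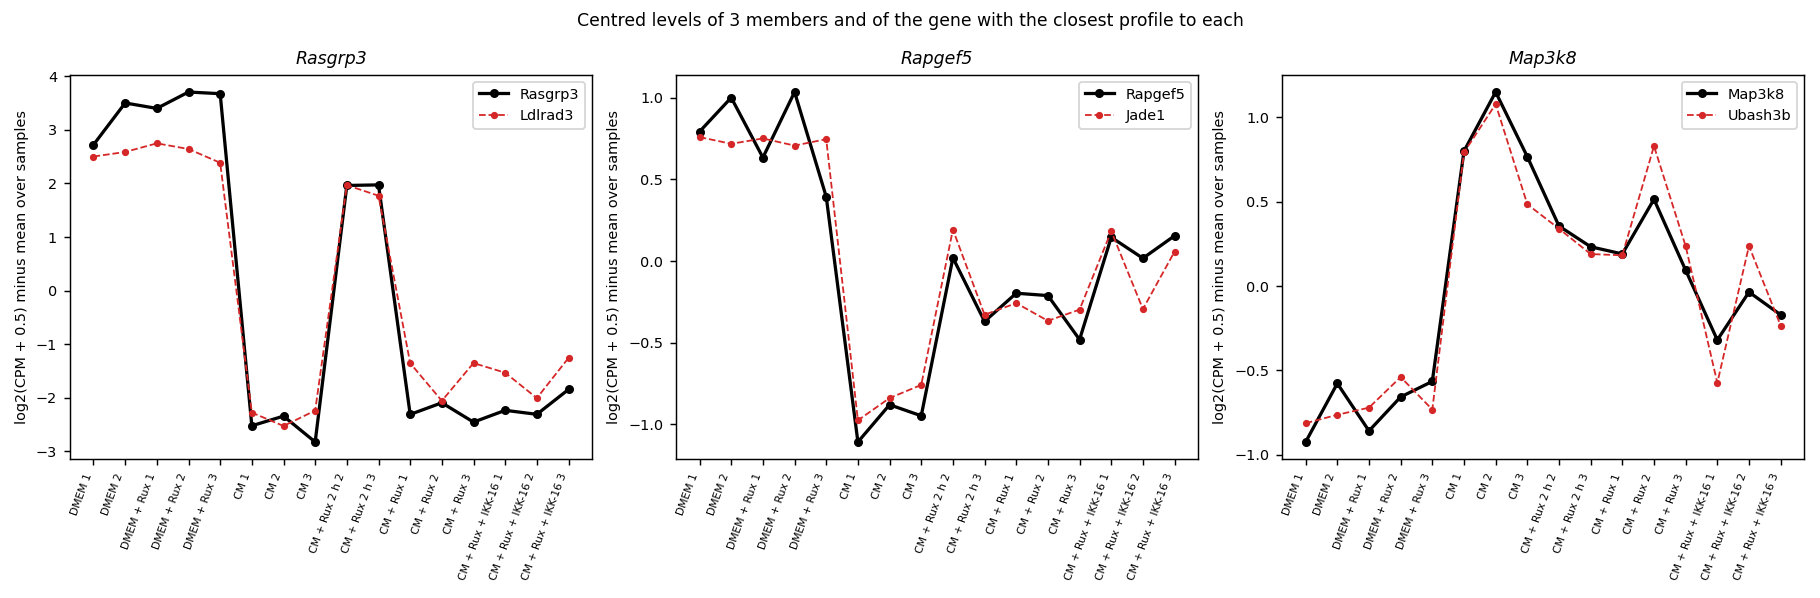
Centred log2(CPM + 0.5) (vertical axes) of Rasgrp3, Rapgef5 and Map3k8 (black) and of the gene with the closest profile to each (dashed; Ldlrad3, Jade1 and Ubash3b) over the 16 samples, named by group and replicate. By root mean square difference Ldlrad3 lies 0.69 from Rasgrp3, Jade1 0.19 from Rapgef5 and Ubash3b 0.17 from Map3k8.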

How the data were processed

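RNA of 16 BMDM samples was sequenced from stranded paired-end libraries. The authors trimmed reads with Trimmomatic 0.33, aligned them to GRCm38 with HISAT2 2.1.0 and counted them per gene with featureCounts 1.6.2, and the deposited table holds unscaled whole-number counts of 55487 Ensembl genes with exon lengths. Symbols matched 55141 identifiers. Samples were grouped by their labels. A gene was kept where 2 or more samples exceeded 1 CPM (12372 genes), counts were scaled by RLE, and all 16 samples in 6 groups were fitted in 1 model with the quasi-likelihood test of edgeR 4.0.16 (limma 3.58.1, R 4.3.3), Benjamini-Hochberg adjusted over all genes tested. This normalization, filter and thresholds follow the study's methods. The 10 genes and the lists were chosen with earlier results of these data known. The text names the 10 genes, the largest changes of each role group, Dusp6, Spry4, Etv5 and Egr1, and genes among the 3 closest profiles of Rasgrp3, Rapgef5 and Map3k8 (mean of 1 CPM or more), of which some are not reported here. Replicate numbers, which the labels give without saying what they mark, paired the samples in the data: deviations of samples with the same number correlated at 0.16 to 0.72. Replicates were no copies (chi-square between pairs 14.2 to 54.4 times its degrees of freedom). The alternatives were TMM, scaling by total counts, no filter, the filterByExpr filter, the replicate block, only the groups compared, DESeq2 1.42.0, no fold threshold and each sample left out. RLE moved the median of all genes, against scaling by total counts, by 0.31 in CM against DMEM, 0.30 in CM + Rux against DMEM + Rux and 0.21 in CM + Rux + IKK-16 against DMEM + Rux, and by less than 0.1 in the other comparisons. The fit was tested on simulated data. Figures and sequences used Python 3.11.15, pandas 2.3.3, numpy 2.4.6 and matplotlib 3.10.9.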

Additional observations from a re-analysis of the deposited data

How the results depend on the processing

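Of 874 values of the 10 genes under the alternatives, 794 kept their direction and side of the thresholds or moved by less than the spread between replicates. The number of the 10 genes called moved by over 1.5 times in these cases. In CM + Rux against CM it was 2, 1 with only the groups compared, and 0 to 3 with a sample left out. In CM + Rux + IKK-16 against CM + Rux it was 0, 1 with no filter, no fold threshold or DESeq2, 2 with the replicate block, and 0 to 1 with a sample left out. With a sample left out it was 0 to 1 in DMEM + Rux against DMEM and 3 to 5 in CM + Rux 2 h against CM + Rux. The replicate block called Rasgrp1 and Rasgrp4 (IKK-16), Spry1 (CM + Rux against DMEM + Rux), Rasgrp2 (CM against DMEM) and Spred2 (CM + Rux against CM) in addition and changed no other call of the 10 genes. Of these, Spry1 is only a description, since it passed the filter on low counts only through groups where it is high. Genes called of all tested rose from 957 to 1778, from 2883 to 4726 and from 4631 to 7219 without the fold threshold, in the comparisons of IKK-16, of the 2 h label and of IKK-16 with DMEM + Rux. Between CM + Rux and CM they were 412, 685 with no filter, 745 with the block and 243 to 486 with a sample left out.

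The following values changed sign. In CM against DMEM, Spred1 was -0.29 with scaling by total counts and -0.057 to 0.11 with a sample left out, and Spry1 was -0.15 to 1.18 with a sample left out. In CM + Rux 2 h against CM + Rux, Map3k8 was -0.047 with scaling by total counts and -0.046 with the block, and Rasgrp2 was -0.063 with the block. For CM + Rux against DMEM + Rux, Spry2 was 0.00043 with the filterByExpr filter. With a sample left out, the range in CM + Rux + IKK-16 against CM + Rux was -0.22 to 0.26 for Rasgrp2, -0.70 to 0.090 for Spry1 and -0.016 to 0.30 for Rasgrp3. In DMEM + Rux against DMEM it was -2.16 to 0.80 for Rasgrp1, which was above 0 only without DMEM replicate 1, -0.11 to 0.47 for Rasgrp2, -0.46 to 0.091 for Rasgrp4, -0.026 to 1.30 for Spry1, -0.012 to 0.37 for Spry2 and -0.11 to 0.24 for Map3k8. In CM + Rux 2 h against CM + Rux it was -0.32 to 0.34 for Rasgrp2, -0.086 to 0.31 for Rapgef5, -0.066 to 0.15 for Map3k8 and -0.29 to 0.091 for Spry2, and in CM + Rux against DMEM + Rux -0.21 to 0.18 for Spry2. The causes were not tested. Calls of all genes split into 2761 higher and 3096 lower in CM + Rux against DMEM + Rux, and into 1700 and 4672 with scaling by total counts. Rasgrp1, Rasgrp2 and Spry1 had few reads in several groups, which limits the precision of their folds.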
